A study of Mus musculus with 48 samples.

Results

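The genes described here encode the proteins of the cytosolic ribosome. They were chosen by name, as protein-coding genes of the GENCODE vM21 annotation whose symbol follows the Rpl or Rps numbering or is Rplp0, Rplp1, Rplp2 or Rpsa, and the kinase genes named Rps6k were left out. The rule finds 83 of the 55450 genes in the count table, 51 of the large subunit and 32 of the small subunit. The group was proposed because its counts were higher in untreated tumors of KO mice, so the values of that contrast are a description and carry no test.

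RNA was sequenced from 48 tumors of B16-D5 cells, a line of mouse melanoma, in 16 groups of 3. The mice were C57BL/6J (WT) or iNOS KO, that is, lacking inducible nitric oxide synthase, which is encoded by Nos2. They arrived at 4 weeks of age and were housed for 2 weeks, and tumor cells were placed under the skin of the flank 8 days before treatment. Only the host was knockout, since the injected melanoma cells were the same in both strains. Mice were left untreated or were given 250 µg of control IgG or of anti-PD-1, an antibody that blocks the PD-1 receptor of T cells, on days 0 and 3. A WT time course of 30 tumors held untreated tumors at 0 hours, and untreated, IgG-treated and anti-PD-1-treated tumors at D0 (6 hours), D1 and D3. Tumors of D0 and D1 were taken before the dose of day 3, and the paper does not state whether those of D3 had received it. A second experiment of 18 tumors held untreated, IgG-treated and anti-PD-1-treated tumors of KO and of WT mice at day 7. A library is named below by its group and by the replicate number of its title.

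A ribosome has a small subunit, which reads the messenger RNA, and a large subunit, which joins amino acids, and each is built of ribosomal RNA and of proteins that are made in the cytoplasm and assembled in the nucleolus. The messenger RNAs of nearly all these proteins are short and abundant, and they begin with a C followed by a run of pyrimidines, the terminal oligopyrimidine (TOP) motif, through which the kinase mTOR and the protein LARP1 set their translation. Some proteins have functions outside the ribosome, such as RPL5 and RPL11, which bind MDM2 when ribosome assembly is disturbed, and a few have paralogs that are used in particular tissues, such as RPL3L in muscle and RPL10L and RPL39L in the testis.

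Libraries of the WT time course had 25574203 to 47687872 counts on genes, and those of the second experiment 11625862 to 40959309. Markers of melanoma cells summed to 9535 to 21038 CPM (counts scaled to a common library size with TMM factors) in the time course and 9970 to 19522 CPM at day 7, whereas T cell markers stayed at or under 68.4 CPM in all 48 libraries. Nos2 did not separate the genotypes, with 1.15 to 5.92 CPM in the 9 libraries labelled KO and 1.40 to 7.28 CPM in the 9 WT libraries of day 7, and the counted region of the gene cannot tell a disrupted transcript from an intact one. The genotype field of the labels reads WT for all 48 samples, so KO below means the group in the title. At day 7, 3 libraries stood apart, untreated KO replicate 1 and anti-PD-1-treated WT replicates 3 and 4, with 870, 2828 and 1172 CPM on genes of olfactory, vomeronasal and taste receptors against at most 306 CPM in any other library.

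The sequence around the start of transcription is shown for genes on which the results below turn, the genes at the high and at the low end of the order by log2 fold change between untreated KO and WT tumors, and Rpl10l. RefSeq start sites on GRCm38.p6 were at hand for 63 of the 83 genes. Each line holds 30 bases, 5′ to 3′ on the gene's strand, and capitals mark the longest run of pyrimidines (C or T) found from 50 bases before to 50 bases after the start.
Rpl22l1, chr3:28805499-28805528, plus strand: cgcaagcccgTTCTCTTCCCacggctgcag
Rps12, chr10:23787182-23787211, minus strand: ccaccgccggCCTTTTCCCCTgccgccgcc
Rpl39, chrX:37085173-37085202, minus strand: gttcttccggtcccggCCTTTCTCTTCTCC
Rps21, chr2:180257399-180257428, plus strand: ggaggcacgagctaCTTCCTTTCTgcgctc
Rpl34, chr3:130730393-130730422, minus strand: ctgacgcgccgCCTTCCCTgacgtacttcc
Rps25, chr9:44407684-44407713, plus strand: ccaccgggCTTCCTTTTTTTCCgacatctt
Rpl28, chr7:4792952-4792981, plus strand: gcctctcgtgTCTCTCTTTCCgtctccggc
Rpl4, chr9:64173405-64173434, plus strand: gagcgtggCCTTCTCCTCTCCCCgtcatgg
Rpl10l, chr12:66284387-66284416, minus strand: tttggcctccattttgcggctggcggtggg

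A run of at least 8 pyrimidines lay in that window in 50 of the 63 genes (79.4%), against 34.5% of 16458 other protein-coding genes and 35.6% of all 27025 genes of the table. Of the genes printed, those highest in untreated KO against WT tumors and Rpl28 and Rpl4, at the low end of that order, all had such a run, while Rpl10l, a copy used in the testis, had none of 8 or more. This depends on the genes printed, since the paralogs Rpl39l and Rpl3l each had a run of 9. Rps13, with a log2 fold change of 1.42 in that contrast, had none of 8 or more. The letters CCGGAAG, on either strand of the 300 bases around the start, were found in 25 of the 63 promoters (39.7%) and in 12.2% of other protein-coding genes, and AAGATGG in 9 (14.3%) and 6.4%. These matches describe the letters of the windows only.

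Levels differed between the genes by several orders of magnitude, and the order is given as median CPM per kb of exon over the 48 libraries. The exon length joins the exons of all annotated transcripts, so the order depends in part on the annotation. Rpl36 has 1 annotated transcript and 383 exon bases, whereas Rpl21 has 3400 exon bases for a spliced transcript of 899 nucleotides. Rpl36, a large subunit protein (chr17:56613416-56614243), stood highest with 1095 CPM per kb, followed by Rplp1, a protein of the acidic stalk that recruits elongation factors, with 744 CPM per kb. Rpl29, Rps15, Rpl28 and Rpl19 followed with 609, 575, 547 and 477 CPM per kb. The spread of Rpl36 over libraries, 178 to 2683 CPM per kb, takes in the medians of all 5 that follow it.

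At the other end, Rpl22l1 had 4.73 CPM per kb, Rpl24 2.62, Rps10 1.23, Rpl3l 0.568 and Rpl39l 0.284, and Rpl10l had a median of 0 CPM and passed 3 counts in 12 of the 48 libraries. Rpl24 and Rps10 encode proteins of every ribosome. Another annotated gene on the same strand covers 47% of the exons of Rpl24 and 20.6% of those of Rps10, and in Rpl24 80.1% of the 100-base windows occur elsewhere among annotated transcripts, so the counts of both are uncertain. In all, 16 of the 83 genes shared over 50% of their 100-base windows with another gene and 8 shared none.

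Paralogs were measured below the genes they resemble. Rpl22l1, which can replace RPL22 in the large subunit, had 4.73 CPM per kb against 53.8 for Rpl22, and Rpl7l1 had 15 against 119 for Rpl7. Rpl39l had 0.284 CPM per kb against 26.3 for Rpl39, Rpl10l was at 0 against 82 for Rpl10, and Rpl3l had 0.568 against 49.3 for Rpl3. Rps27l, a paralog that p53 is known to induce, came near its partner on this scale, with 63.9 CPM per kb against 77.6 for Rps27. That nearness depends on the length used. The exon lengths were 816 bases for Rps27l and 1043 for Rps27, whereas their spliced transcripts have 575 and 345 nucleotides. The gaps of the other pairs depend on the length as well.

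Rpl3l varied more within groups than any other of the genes in the time course, with an SD of 1.12 on the log2 scale. Its highest values there were 13.5 CPM in IgG-treated D1 replicate 6, 10.2 CPM in untreated 0-hour replicate 3 and 5.04 CPM in untreated 0-hour replicate 2. The same libraries had the highest sums of the 10 skeletal muscle markers, 17644, 14594 and 7852 CPM, against a median of 44.5 CPM over the 30 libraries. In the second experiment the highest Rpl3l value, 4.39 CPM in anti-PD-1-treated WT replicate 3, came with only 179 CPM of muscle markers.

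**Figure D1:**
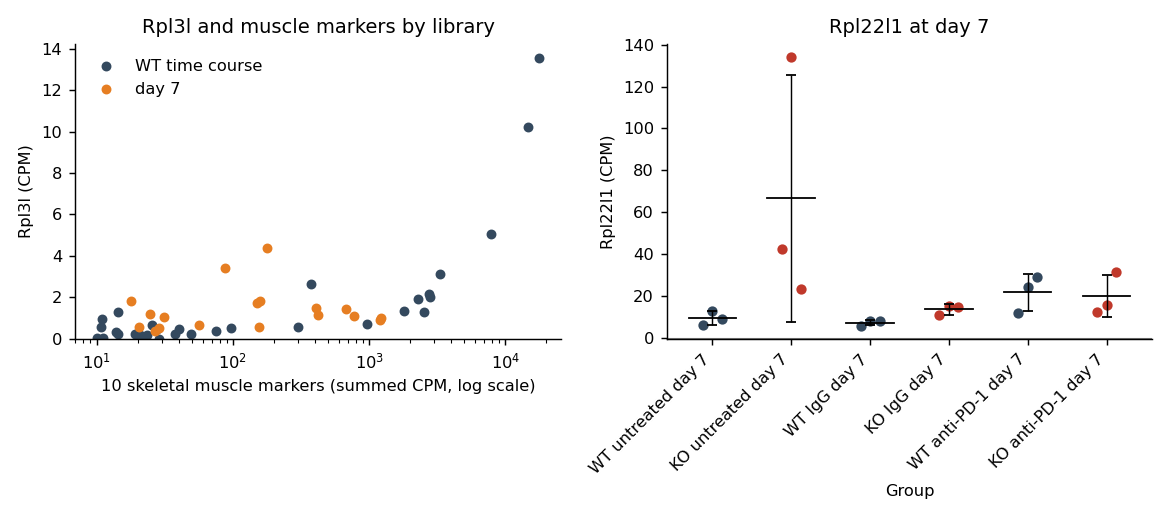
Left, Rpl3l (CPM) against the summed CPM of 10 skeletal muscle markers on a log axis, 1 point per library, with the WT time course and day 7 in separate colors. Right, Rpl22l1 (CPM) in the 6 day-7 groups, 3 points per group with the mean and SD. The highest Rpl3l values, 13.5 and 10.2 CPM, lie at the right edge of the muscle axis, and Rpl22l1 is highest in untreated KO tumors.

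Among the genes with at least 10 CPM, the SD within groups had a median of 0.283 on the log2 scale in the time course (77 genes) and 0.285 at day 7 (78 genes), against 0.260 and 0.236 for other protein-coding genes. A few libraries held most of the extremes. IgG-treated D0 replicate 6 was the lowest of 30 for 41 of the 83 genes, with 6.11 CPM of Rps29 against 124 and 157 CPM in the other libraries of its group. Rps28 showed the same gap there, 12.8 CPM against 267 and 282 CPM. Untreated KO replicate 1 was the highest of the 18 day-7 libraries for 36 genes, and untreated WT replicate 1 was the lowest for 34.

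The share of all counts that fell on the 83 genes was steady in most groups and raised in untreated KO tumors. It was 1.38% to 2.54% in the 30 libraries of the time course. At day 7 it was 4.06%, 3.16% and 2.89% in untreated KO tumors and 1.81%, 2.08% and 2.15% in untreated WT tumors, without overlap. IgG-treated tumors had 2.09%, 2.33% and 2.17% (KO) and 1.95%, 1.88% and 1.81% (WT), also without overlap and much closer together. Anti-PD-1-treated tumors were the most uneven, with 2.15%, 1.97% and 2.88% (KO) and 2.11%, 3.17% and 2.97% (WT). In bulk tumor RNA, a change in the cells present and a change in RNA per cell cannot be told apart.

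**Figure D2:**
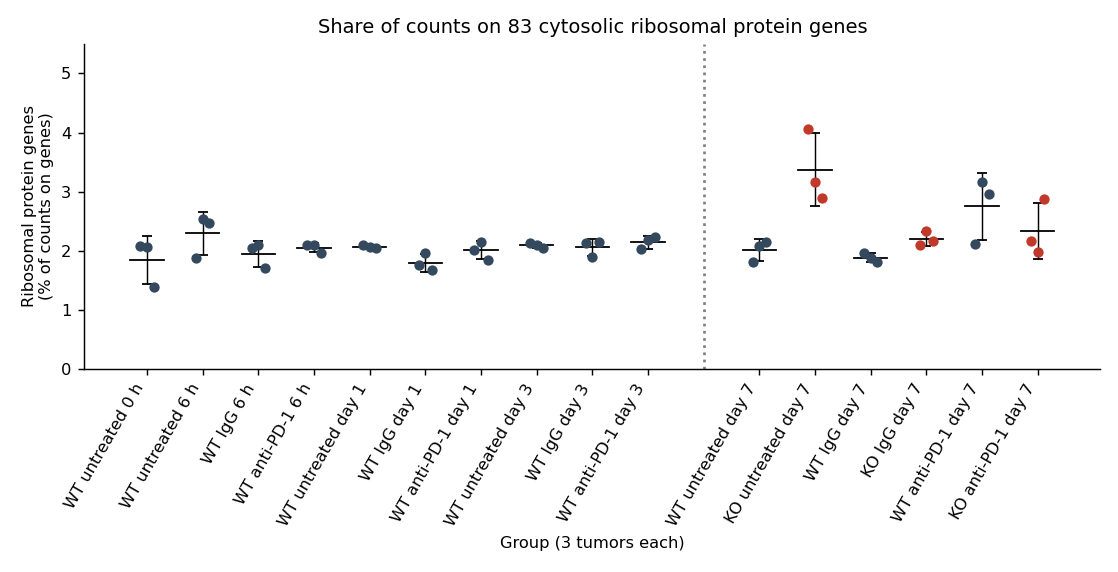
Percent of all counts on genes that fell on the 83 ribosomal protein genes, by group, with 3 points per group, a line at the mean and bars of 1 SD. The untreated KO libraries, 2.89% to 4.06%, lie above all 3 untreated WT libraries, and the WT time course lies between 1.38% and 2.54%.

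Between untreated KO and untreated WT tumors, the contrast behind the choice of these genes, the median log2 fold change of the 83 genes was 0.86, and 78 of the 83 lay above 0. All 83 had passed the filter on low counts. For all genes tested the median was 0.49, and for other protein-coding genes it was 0.15, with 58.5% above 0. In 65 of the 83 genes all 3 KO libraries lay above all 3 WT libraries, which held for 9.73% of all genes tested, and in 1 gene, Rpl4, all 3 lay below, which held for 8% of genes. Small subunit genes had a median of 1.01 and large subunit genes 0.81. Nothing is read from these counts, since the genes were chosen on this contrast.

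The largest differences with a fold were found in the paralog Rpl22l1 and in the small subunit gene Rps12. Rpl10l had counts in 1 of the 6 libraries only, 0.49 CPM in KO replicate 1, and no fold is given. Rpl22l1 (chr3:28805436-28807424) had 42.6, 134 and 23.5 CPM in the KO libraries and 6.29, 13 and 9.19 CPM in the WT libraries, a log2 fold change of 2.81 ± 0.49 (SE). Rps12 had 1629, 966 and 578 CPM against 260, 302 and 261 CPM (1.95 ± 0.31). In both genes the lowest KO value was above the highest WT value, and the KO libraries differed among themselves by more than the WT libraries did.

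Rps21, of the small subunit, had 123, 205 and 94.4 CPM in KO and 28.9, 40.9 and 51.3 CPM in WT tumors (log2 fold change 1.8 ± 0.28). Rps27a, which is made as a fusion with ubiquitin, had 110, 233 and 103 CPM against 31.6, 39.2 and 57.3 CPM (1.8 ± 0.32). Rps25, needed for initiation at some viral entry sites, had 893, 635 and 433 CPM against 170, 234 and 233 CPM (1.62 ± 0.28). Replicate 2 of the KO group was the highest for Rps21, Rps27a and Rpl22l1, while replicate 1 was the highest for Rps12 and Rps25.

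A pair of large subunit genes belongs to the same end of the order. Rpl39, which lines the exit tunnel of the peptide, had 103, 196 and 59.0 CPM in KO and 18, 41.9 and 39.1 CPM in WT tumors (1.86 ± 0.36). Rpl34 had 346, 315 and 170 CPM against 82.9, 93.9 and 82.5 CPM (1.68 ± 0.24). Neither overlapped between the groups.

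At the other end of the order, a few genes lay below 0. Rpl4, one of the larger ribosomal proteins, had 701, 921 and 910 CPM in KO and 1131, 990 and 936 CPM in WT tumors (−0.27 ± 0.22). Rpl7 was at −0.35 ± 0.23, with groups that overlapped. Rpl28 and Rpl21 were at −0.04 ± 0.25 and −0.01 ± 0.26, also with groups that overlapped.

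The stalk proteins and others with known separate functions lay between these ends. Rplp0, the base of the stalk, had 700, 604 and 625 CPM in KO and 459, 422 and 449 CPM in WT tumors (0.54 ± 0.17), and Rplp1 and Rplp2 were at 1.05 ± 0.27 and 0.83 ± 0.25. Rps6, the substrate of S6 kinase, was at 0.38 ± 0.20 with overlapping groups. Rpl5 was at 0.86 ± 0.25 and Rpl11 at 0.38 ± 0.18, although both proteins enter the same particle with 5S RNA. Rpl13a, Rpsa and Rps27l were at 0.83 ± 0.19, 0.74 ± 0.19 and 1.53 ± 0.33.

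**Figure D3:**
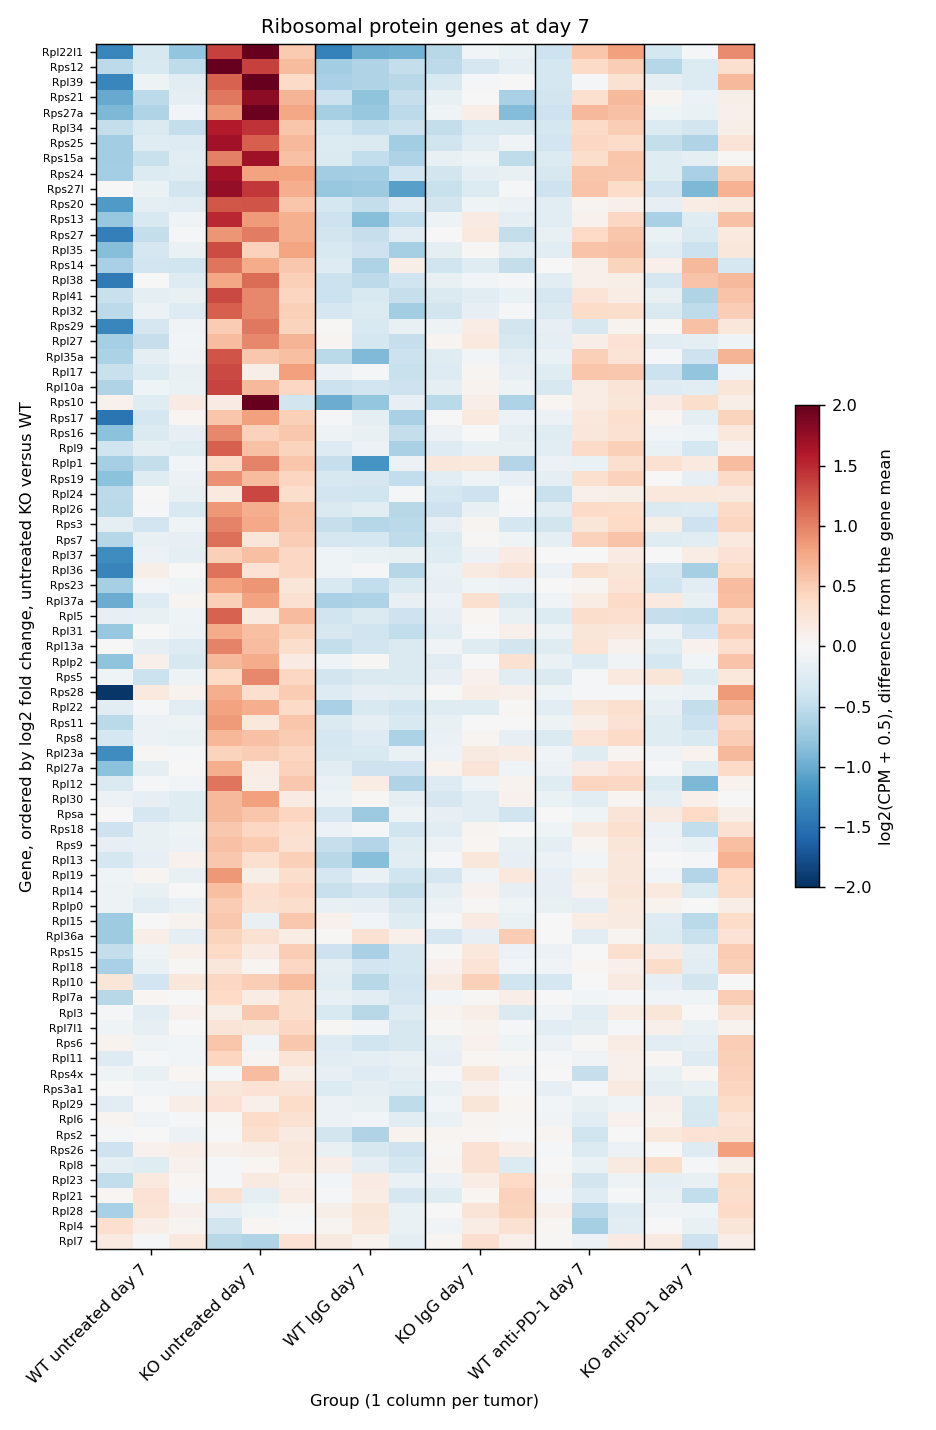
Log2(CPM + 0.5) of 79 ribosomal protein genes (rows, without Rpl10l, Rpl39l, Rpl3l and 1 gene not reported here) minus each gene's mean over the 18 day-7 libraries (columns, by group), with colors limited to 2 in either direction. The 3 untreated KO columns are the reddest block, and replicates 3 and 4 of the anti-PD-1-treated WT group and replicate 3 of the anti-PD-1-treated KO group follow.

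Several other measures moved with this contrast, and their part in it was not tested. Genes of the annotation class misc_RNA took 1.25%, 0.592% and 0.594% of counts in untreated KO tumors and 0.265%, 0.306% and 0.250% in untreated WT tumors. The 6 fibroblast markers summed to 637, 703 and 865 CPM against 876, 3974 and 2249 CPM, and all 6 had a log2 fold change below 0. The 6 markers of dividing cells summed to 1442, 1840 and 1707 CPM against 2520, 2214 and 2280 CPM. The 7 T cell markers were higher, with 18.4, 8.5 and 11.8 CPM against 2.95, 7.58 and 3.67 CPM, and the 5 endothelial markers lower, with 162, 196 and 176 CPM against 215, 241 and 205 CPM. Small nucleolar RNA genes took 0.0592%, 0.0533% and 0.0407% of counts against 0.0135%, 0.0249% and 0.0267%. Melanoma markers overlapped, with 14718 to 19522 CPM in KO and 16219 to 18209 CPM in WT tumors. Without the 3 libraries rich in receptor genes the median of the members with a fit was 0.72, with 76 of 82 above 0, and the median of all genes fell to 0.01.

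Transcript length also went with the difference. The 83 genes have spliced transcripts of 271 to 3706 nucleotides with a median of 751, against a median of 2260 for other protein-coding genes. Among genes with at least 10 CPM, the median log2 fold change of the 28 ribosomal protein genes of 600 nucleotides or less was 1.11 between untreated KO and WT tumors, and that of 138 other genes of that length was 0.54. From 600 to 1000 nucleotides the medians were 0.58 (33 genes) and 0.29 (447 genes), and from 1000 to 2000 they were 0.74 (15 genes) and 0.01 (1873 genes). Other genes over 4000 nucleotides had −0.28. Across genes, which are not independent replicates, Spearman's rho between length and log2 fold change was −0.40 in 78 ribosomal protein genes and −0.47 in 9267 others. With the length trend of other genes taken out, the median of the 83 genes was 0.48 and 70 lay above 0.

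**Figure D4:**
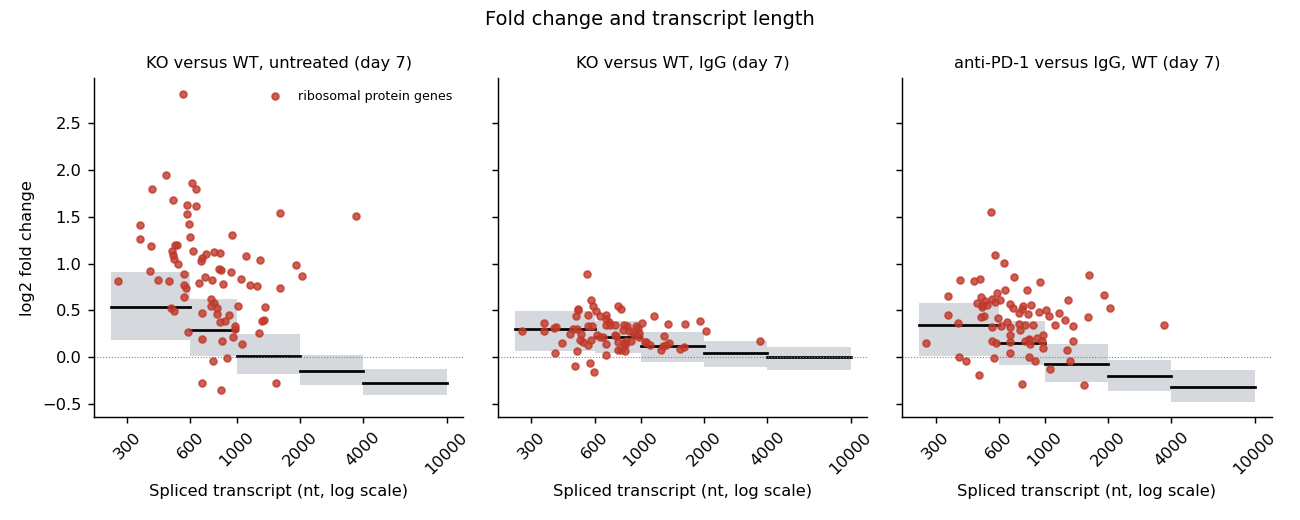
Log2 fold change against spliced transcript length (nucleotides, log axis) at day 7. The comparisons are KO against WT untreated, KO against WT under IgG, and anti-PD-1 against IgG in WT mice. Red points are ribosomal protein genes, and black lines with grey bands are medians and quartiles of other protein-coding genes with at least 10 CPM in each length range. In untreated KO against WT the line falls from 0.54 at the shortest to −0.28 at the longest genes, and most red points lie above it.

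Genes that work with the ribosome had lower medians between untreated KO and WT tumors, and the difference between the lists was not tested. The lists were not matched by transcript length, which went with the fold change in this contrast. Other protein-coding genes with at least 10 CPM had 0.54 at 600 nucleotides or less and −0.28 over 4000. The 19 translation genes with a TOP motif, such as elongation factors, had a median of −0.00 with 9 above 0, and 38 genes of ribosome biogenesis had −0.16 with 13 above 0. The 13 regulators of ribosomal protein output, among them Myc, Mtor and Larp1, had −0.25 with 0 above 0. The proteins of the mitochondrial ribosome, which has its own set of genes, had 0.39 with 65 of 77 above 0, and 12 targets of p53 had 0.07.

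The contrasts of untreated with treated tumors at day 7 use the same untreated libraries and are likewise only described. In KO mice the median over the 83 genes was −0.68 for IgG against untreated and of −0.56 for anti-PD-1 against untreated, with 76 and 75 below 0. In WT mice the medians were −0.11 and 0.34. Over all genes tested, in the same order, the medians were −0.45 and −0.44 in KO mice and 0.14 and 0.96 in WT mice. Those of other protein-coding genes were −0.12 and −0.12 in KO mice and 0.06 and 0.18 in WT mice. Both contrasts of a strain share its untreated tumors.

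Comparisons that leave out the untreated day-7 tumors were tested with edgeR's quasi-likelihood test over all genes, with p-values adjusted by the Benjamini-Hochberg method. No ribosomal protein gene passed an adjusted p of 0.05 in any of the 16 tests, and 0% of all genes did, so counts at an unadjusted p under 0.05 and counts of groups without overlap are given instead, each beside its share among all genes. DESeq2 called 1 gene in 1 of the tests, Rpl17, lower in KO than in WT tumors under anti-PD-1, where 10.7% of all genes with an adjusted p were called lower. The lists of translation, biogenesis, regulator, p53 and mitochondrial ribosomal genes held 0 genes that passed in edgeR.

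Between KO and WT tumors under IgG, the 83 genes were slightly higher in KO tumors. Their median log2 fold change was 0.25, with 78 above 0, while other protein-coding genes had −0.06. All 3 KO libraries lay above all 3 WT libraries in 36 of the 83 genes, against 5.7% of all genes tested, and 3 genes were higher at an unadjusted p under 0.05, against 2.15%. Rpl13 had the lowest p, with 364, 433 and 333 CPM in KO and 252, 206 and 317 CPM in WT tumors. The groups did not overlap, and the log2 fold change was 0.54 ± 0.22 (unadjusted p = 0.023, adjusted p = 0.626 in edgeR). Rpl22l1, the gene that led the untreated contrast, had 11, 15.6 and 14.8 CPM against 6.09, 8.05 and 8.25 CPM, and Rps12 had 258, 294 and 330 CPM against 230, 246 and 268 CPM.

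Short genes outside the ribosome showed a like difference under IgG. Genes of 600 nucleotides or less had medians of 0.29 (ribosomal proteins) and 0.30 (others), and those of 600 to 1000 nucleotides had 0.26 and 0.22. With the length trend taken out, the median of the 83 genes was 0.05 and 56 lay above 0. Mitochondrial ribosomal protein genes had a median of 0.28 with 74 of 77 above 0, translation genes with a TOP motif 0.16 with 18 of 19, and ribosome biogenesis genes 0.16 with 33 of 38.

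Between KO and WT tumors under anti-PD-1 the 83 genes did not move one way. Their median was −0.03, with 39 above 0, and it changed sign in 16 of 27 alternatives, beside −0.12 for other protein-coding genes and −0.91 for all genes. At an unadjusted p under 0.05, 1 gene was higher and 2 were lower, against 5.69% and 26.6% of all genes. Rpl17 had the lowest p, with 315, 245 and 411 CPM in KO and 359, 623 and 621 CPM in WT tumors, which overlapped (−0.72 ± 0.27, unadjusted p = 0.016, adjusted p = 0.135 in edgeR). WT replicates 3 and 4, the libraries rich in receptor genes, held the 2 highest values. Without the 3 libraries rich in receptor genes the median was 0.25, with 77 of 82 above 0, but only 1 WT library, replicate 2, is then left against 3 KO libraries.

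In WT mice, anti-PD-1-treated tumors were set against IgG-treated ones to ask what the antibody changed. The median over the 83 genes was 0.43, with 75 above 0, beside 0.15 for other protein-coding genes and 0.68 for all genes. At an unadjusted p under 0.05, 31 of the 83 were higher, against 10.6% of all genes, and 43 did not overlap between the groups, against 9.02%. Rps27l led with 52.6, 104 and 90.1 CPM under anti-PD-1 and 41.2, 41.9 and 32.8 CPM under IgG (1.09 ± 0.33, unadjusted p = 0.003, adjusted p = 0.305 in edgeR). Replicate 2 of the anti-PD-1 group lay near the IgG libraries and replicates 3 and 4 lay above. Rpl22l1 had 12.1, 24.3 and 29.3 CPM against 6.09, 8.05 and 8.25 CPM, and Rps27a 44.7, 94.0 and 90.1 CPM against 37.6, 35 and 41.2 CPM.

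The 2 libraries that carried this difference are those with 2828 and 1172 CPM of receptor genes, 0.667% and 0.554% of counts on misc_RNA genes and the fewest counts of the series. Fibroblast markers summed to 370 and 756 CPM in them, against 4528 CPM in replicate 2 and 3012 to 7559 CPM in IgG-treated WT tumors, and B cell markers to 24.8 and 13.2 CPM, against 7.56 CPM and 8.22 to 12.4 CPM. The part of these measures in the difference was not tested. Without the 3 libraries rich in receptor genes the median was 0.15, from replicate 2 as the only anti-PD-1-treated library, so the spread of this group comes from the other groups. Without replicate 2, 14 of the 83 genes passed an adjusted p of 0.05 in edgeR, all higher, against 1.43% of all genes. Ribosomal protein genes of 600 nucleotides or less had a median of 0.55 against 0.34 in other genes of that length.

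In KO mice, anti-PD-1-treated and IgG-treated tumors differed by a median of 0.12, with 61 of the 83 genes above 0. At an unadjusted p under 0.05, 2 genes were higher, against 0.85% of all genes. Rpsa, which encodes the small subunit protein also known as the laminin receptor, had 455, 533 and 438 CPM under anti-PD-1 and 361, 348 and 304 CPM under IgG, without overlap (0.49 ± 0.19, unadjusted p = 0.017, adjusted p = 1 in edgeR). Without anti-PD-1-treated KO replicate 3 the median turned to −0.11. The test of whether the effect of anti-PD-1 differed between KO and WT mice gave a median of −0.29 over the 83 genes. It was −0.47 over all genes tested and −0.11 over other protein-coding genes. Of the 83, 1 gene, Rpl35, was lower at an unadjusted p under 0.05 (−0.80 ± 0.37, unadjusted p = 0.039, adjusted p = 0.670 in edgeR), against 6.44% of all genes. Without the 3 libraries rich in receptor genes the median of the ribosomal protein genes was −0.08, with 1 anti-PD-1-treated WT library left.

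**Figure D5:**
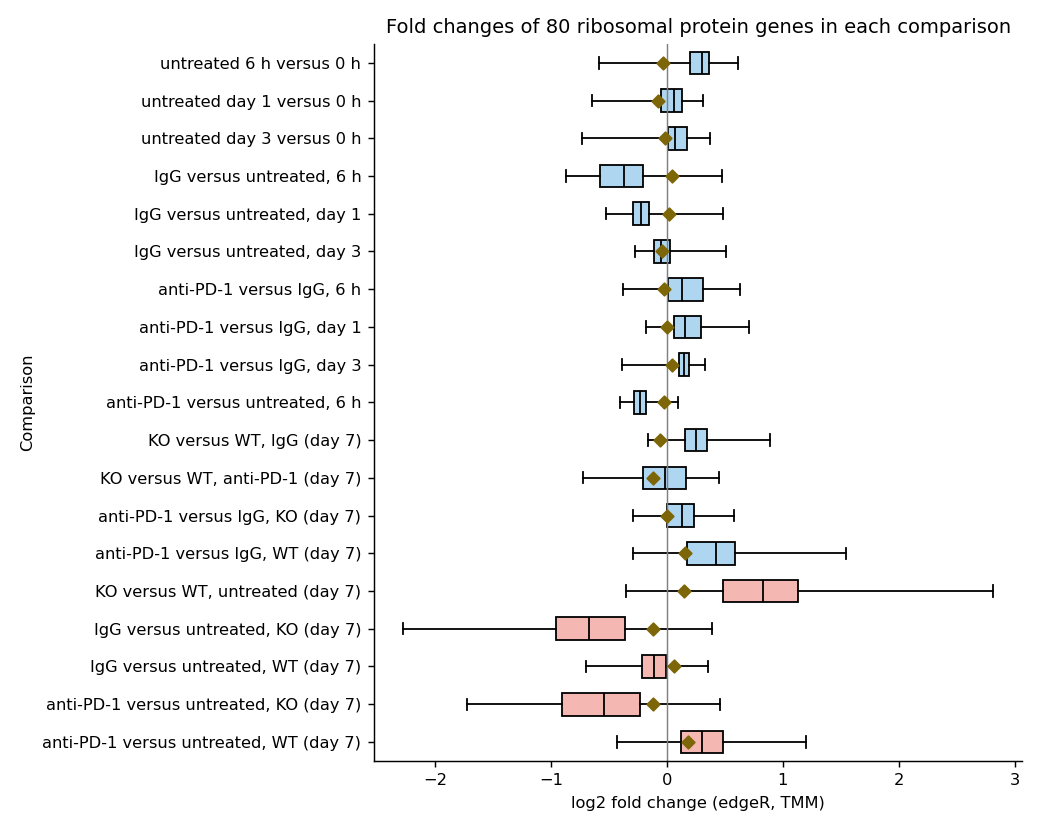
Log2 fold changes of 80 ribosomal protein genes (without Rpl10l, Rpl39l and Rpl3l) in each comparison. Boxes span the quartiles, whiskers reach the lowest and highest gene, black lines are medians, blue marks tested and red only described comparisons, and brown diamonds are medians of other protein-coding genes. The untreated KO against WT box lies highest, and among the tested comparisons the WT anti-PD-1 against IgG box does, with a median near 0.43.

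In the WT time course, the median log2 fold change of untreated tumors at D0 against 0 hours was 0.28, with 77 of the 83 genes above 0, and it was 0.11 without 0-hour replicate 3. In all, 7 genes were higher at an unadjusted p under 0.05, against 1.11% of all genes, and 0 were with a block by replicate number. Rpl41, which encodes the smallest of the ribosomal proteins, had 192, 250 and 262 CPM at D0 and 202, 180 and 149 CPM at 0 hours, which overlapped (0.41 ± 0.16, unadjusted p = 0.015, adjusted p = 0.597 in edgeR). At D1 and D3 the medians against 0 hours were 0.06 and 0.07, and without 0-hour replicate 3 they turned to −0.10 and −0.06. Rpl3l was the gene with the lowest p in both, lower at D1 (unadjusted p = 0.048, against 4.27% of all genes under 0.05 and lower) and at D3 (unadjusted p = 0.049, against 4.69%), and its 0-hour values are those that came with muscle markers. It also had the lowest p in the test of any difference among the 10 groups (unadjusted p = 0.035, adjusted p = 0.813 in edgeR), the only one of the 83 under 0.05, against 5.7% of all genes.

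The median of the 83 genes was below 0 for IgG-treated against untreated tumors at D0 and D1. At D0 the median was −0.39, with 79 of the 83 genes below 0, and 17 genes were lower at an unadjusted p under 0.05, against 1.89% of all genes. For each of the 83 genes, however, the IgG-treated and untreated libraries of D0 overlapped. Rpl39 had 40.9, 32.3 and 11.6 CPM under IgG and 39.2, 56.6 and 47 CPM untreated (−0.75 ± 0.27, unadjusted p = 0.010, adjusted p = 0.760 in edgeR). The groups overlapped, and the value of 11.6 CPM is that of replicate 6, the library with the lowest values for 41 genes. Without it the median was −0.20. Genes of 600 nucleotides or less had medians of −0.51 (ribosomal proteins) and −0.43 (others), and with the length trend taken out the median was −0.07.

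At D1 the median of IgG against untreated was −0.23, with 78 genes below 0, and 15 genes were lower without overlap, against 6.36% of all genes. Rpl31 had 107, 126 and 88.0 CPM under IgG and 148, 148 and 134 CPM untreated, without overlap, and was the only gene lower at an unadjusted p under 0.05, against 1.42% of all genes (−0.42 ± 0.20, unadjusted p = 0.048, adjusted p = 0.859 in edgeR). At D3 the median was −0.05, with a change of sign in 4 of 38 alternatives, and 0 genes were under an unadjusted p of 0.05, against 1.36% of all genes that were higher and 1.28% that were lower, with the lowest for Rpl30 (unadjusted p = 0.122).

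Anti-PD-1-treated tumors had medians of 0.13, 0.15 and 0.14 against IgG-treated ones at D0, D1 and D3. Other protein-coding genes had −0.02, −0.003 and 0.04. Genes of 600 nucleotides or less had 0.26, 0.08 and 0.15 (ribosomal proteins) and 0.27, 0.06 and 0.16 (others). From 600 to 1000 nucleotides the medians were 0.08, 0.26 and 0.16 (ribosomal proteins) and 0.19, 0.06 and 0.13 (others). With the length trend taken out, the medians of the 83 genes were −0.11, 0.16 and 0.06. With 1 library left out, the D0 median was 0.00 without IgG-treated replicate 6, the D1 median 0.08 without anti-PD-1-treated replicate 4, and the D3 median 0.06 without IgG-treated replicate 3. The numbers of genes above 0 were 63, 71 and 78 of 83. At D0 the lowest p was that of Rpl10l (unadjusted p = 0.058), which had 16 counts in IgG-treated replicate 6 and 0 in the other 5 libraries. At D1, 4 genes were higher at an unadjusted p under 0.05, against 1.1% of all genes. Rps2, a small subunit protein at the entry of the messenger RNA, led them with 429, 237 and 190 CPM under anti-PD-1 and 187, 182 and 156 CPM under IgG (0.71 ± 0.21, unadjusted p = 0.003, adjusted p = 1 in edgeR). The groups did not overlap, although the lowest anti-PD-1 value was close to the highest IgG value.

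At D3, 10 genes were higher under anti-PD-1 without overlap, against 3.5% of all genes, and 0 were higher at an unadjusted p under 0.05, against 0.518%. Rpl13a, which is also known as part of a complex that silences inflammatory messages, had 23.9, 23.4 and 26.3 CPM against 23.2, 17.5 and 18 CPM under IgG (0.33 ± 0.18, unadjusted p = 0.072). Against untreated tumors, anti-PD-1-treated tumors at D0 had a median of −0.23 with 2 genes above 0. It was −0.11 without untreated replicate 2, and −0.06 with 17 above 0 under a block by replicate number. Rpl41 was the only gene under an unadjusted p of 0.05, against 1.17% of all genes that were lower, with 198, 179 and 172 CPM against 192, 250 and 262 CPM (−0.36 ± 0.16, unadjusted p = 0.030).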

How the data were processed

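Per the labels and the methods of the study, total RNA of fresh tumors was made into strand-specific libraries with the NuGEN Universal Mouse RNA-Seq kit. The submitters' processing notes name cutadapt 1.8.1, STAR 2.7.7a, RSEM 1.3.0 and the mm10 build. The authors deposited whole-number counts per gene without normalization. The name of the table refers to another counting program, and the values do not show which was used. Nothing says how reads that match several genes were divided, and that bears on ribosomal protein genes, which have many processed copies in the genome.

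All 55450 gene identifiers matched GENCODE vM21. Groups came from the titles, because other label fields conflict with them, and the paper describes each tumor as that of a separate animal. Each experiment was fitted on its own in edgeR 4.0.16 (R 4.3.3) with TMM factors, 1 coefficient per group and the quasi-likelihood F-test, on genes that passed filterByExpr with a minimum count of 10. This left 26848 genes in the WT time course (20 residual degrees of freedom, CV 0.672) and 30837 at day 7 (12 residual degrees of freedom, CV 0.786). P-values were adjusted over all genes of a comparison by the Benjamini-Hochberg method at 0.05. CPM are counts scaled to a common library size with TMM factors, and errors of log2 fold changes are SE from the fit. Levels per kb divide by the summed exon length over all annotated transcripts, with shared bases counted once. Alternatives were DESeq2 1.42.0, DESeq2 size factors or total counts in place of TMM factors, no filter and a block by replicate number. Others were the receptor gene level as a covariate, fits of the compared groups only and each replicate left out. A length trend as offset and leaving out 3 libraries were chosen after seeing the data. The scripts were tested on simulated data. No 2 replicates were copies, with a chi-square per gene of 18.2 to 483 over 48 pairs.

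The 83 genes and the lists were chosen with earlier results of these data known. Genes named in the text are the 6 highest and 6 lowest per kb, the paralogs and their partners, the gene with the lowest p in each test, the 8 largest and 4 smallest differences between untreated KO and WT tumors, and 10 genes fixed by name. Of these, 1 gene is not reported here. Values of other genes named (Rps28 and Rps29) were picked after they were seen.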

Additional observations from a re-analysis of the deposited data

How the results depend on the processing

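Of 579 alternative values of the main results, 572 counted as unchanged. For the number of genes called in a test, this meant that it stayed at 0. For the untreated KO against WT median, it meant a shift smaller than the SD within groups of the genes' mean log2 level. Since 0% of all genes were called in the main fits, a count that stayed at 0 says little on how firm a result is. The alternatives also include fits without a replicate of a group that the comparison does not use. With no filter on low counts, 1 gene (Rpl3l) was called among the 10 groups of the time course (2.85% of all genes), 1 (Rpl22l1, higher) in KO against WT under IgG (0.117%), and 3 (Rpl22l1, Rps27a and Rps27l, higher) in anti-PD-1 against IgG in WT mice (0.991%). With DESeq2, 1 gene (Rpl17, lower) was called in KO against WT under anti-PD-1 (10.7%). Leaving out 1 replicate gave 0 to 1 calls in that contrast and 0 to 14 in anti-PD-1 against IgG in WT mice, the highest of each without anti-PD-1-treated WT replicate 2 (7.27% and 1.43% of all genes in the same direction). The median of anti-PD-1 against IgG in WT mice was 0.19 without anti-PD-1-treated replicate 4. The cause was not tested.

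The median between untreated KO and WT tumors was 0.48 with the length trend as offset, 0.72 to 0.95 with 1 replicate left out, lowest without untreated KO replicate 1, and 0.69 to 0.94 under the other alternatives set beforehand. The median of KO against WT under anti-PD-1 changed sign in 16 of 27 alternatives, that of IgG against untreated at D3 in 4 of 38, and that of anti-PD-1 against IgG at D0 only with the length offset, at −0.11.

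Replicate numbers did not pair the libraries, with a median correlation of deviations of −0.03 over 65 pairs in the time course (12 above 0.1) and −0.02 over 36 pairs at day 7 (7 above 0.1). The replicate block called 0 of the 83 genes in every test. Under it the genes at an unadjusted p under 0.05 in anti-PD-1 against IgG in WT mice numbered 21, and those lower in IgG against untreated at D0 numbered 5. The median of untreated D3 against 0 hours turned to −0.01 under the block. Depth limits Rpl10l most, since 3 counts are 0.0688 to 0.194 CPM in these libraries.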
